A study of Brachypodium distachyon with 7 samples.

Results

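Trimethylation of histone H3 at lysine 4 (H3K4me3) at the end of 30 days of cold was compared with that of seedlings never exposed to cold in the grass Brachypodium distachyon, diploid line ABR1. The comparison rests on 3 of the 7 chromatin immunoprecipitation sequencing libraries of the series: 1 library of cold-treated seedlings (V30) and 2 libraries of untreated seedlings (V0, called library 1 and library 2). V30 seedlings grew for 14 days at 24 °C and were then kept at 4 °C for 30 days, whereas V0 seedlings were harvested 17 days after sowing at 24 °C, at a stage the labels treat as equivalent. A further H3K4me3 library, V30N, came from seedlings grown for 7 days, kept at 4 °C for 30 days and returned to warmth for 7 days. It is set beside the others where it helps to read a value. The warm regime had 16 h of light and 8 h of darkness, and each library was made from pooled aerial parts, so one library stands for many plants. The labels call V0 library 2 a biological replication of library 1. V30 had no replicate, so its own spread is unknown, and age and days in the cold differ together between V30 and V0 and cannot be told apart.

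H3K4me3 is placed on nucleosomes near the start of genes by Trithorax-type methyltransferases and marks genes that are transcribed or ready to be transcribed. H3K27me3, placed by Polycomb repressive complex 2, marks genes held silent, and the balance of both marks at flowering genes is best known from work on vernalization, the promotion of flowering by long cold. In temperate grasses, cold activates the MADS-box gene VRN1, while CBF transcription factors switch on genes of cold acclimation within hours of a drop in temperature.

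The deposited tables gave 1 signal value for each of 11752 genes in every H3K4me3 library. In every library 1 value recurred at many genes: 22.9 at 1012 genes in V30, 25.4 at 208 genes in V30N, 22.3 at 1139 genes in V0 library 1 and 23.2 at 74 genes in V0 library 2. It is called the fill value here, its origin is not stated, and the 2429 genes that held it in any library were left out. The remaining 9323 genes, 79.3% of the table, were compared as log2(signal + 9.41), with the median of each library subtracted. Before this centring the median of V30 lay 0.10 below the mean of the 2 V0 medians on the log2 scale. The median of V0 library 2 lay 0.24 above that of library 1. Taken gene by gene, V30 minus the mean of V0 had a median of -0.08 before centring. The number of reads behind a value is unknown. Identifiers of the tables did not match the reference gene table used here, which matched 0 of 16434. Loci are therefore given by identifier, at most 2 in each direction, and names are attached only to loci with a published assignment. The labelled tissue could not be checked against marker genes for the same reason.

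The libraries did not separate by condition. The SD over genes of the log2 difference was 0.27 for V30 against V0 library 1 and 0.31 for V30 against V0 library 2, compared with 0.28 between the V0 libraries themselves. V30N and V0 library 2 were closer than any pair that held V30 or V0 library 1, with an SD of 0.18. The values themselves also fell into 2 kinds. Among values below 20, the share that occurred at more than 1 gene was 74.9% in V30 and 77.6% in V0 library 1, against 43.2% in V30N and 43.0% in V0 library 2. V30 and V0 library 1 were thus alike in the spacing of their low values and in their number of recurring fill values. Whether this reflects a difference in how the libraries were made or processed was not tested. The counts of large differences and the medians of the gene lists are therefore also given against each V0 library alone, whereas the splits by level, chromosome and H3K27me3 use both.

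V30 lay above both V0 libraries at 3403 genes, or 36.5% of those used, and below both at 2899 genes, or 31.1%. At the other 3021 genes, 32.4%, it lay between them. Most of these distances were small. The distance of V30 from the nearer V0 library, called the gap here, had a median of 0.14 above and 0.13 below on the log2 scale, and 90% of gaps stayed under 0.39 and 0.35. The V0 libraries differed from each other by a median of 0.18. Without centring the balance turned, to 2019 genes above and 3811 below, and quantile normalization gave 3140 and 3116. The direction of the majority therefore depends on how the libraries are scaled. Nor are the shares outside both V0 libraries a count of changed genes. In simulated libraries with a spread taken from the V0 libraries, 6116 of 9123 genes given no difference also lay outside both.

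**Figure D1:**
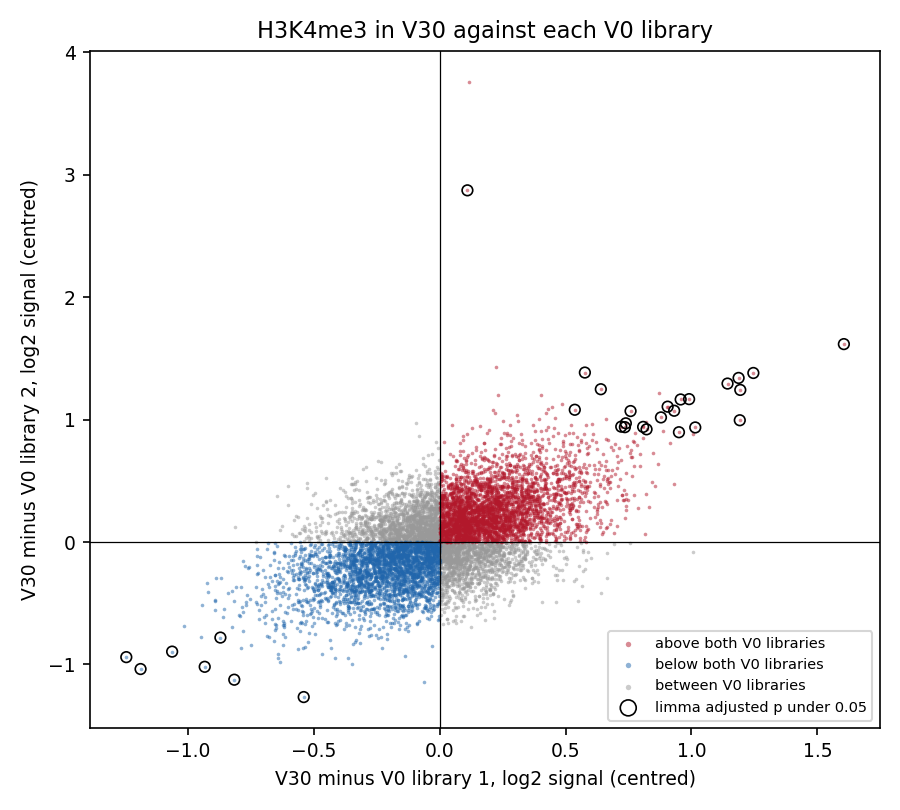
Each point is 1 of 9323 genes, plotted by the centred log2 difference of H3K4me3 signal between V30 and V0 library 1 (horizontal axis) and between V30 and V0 library 2 (vertical axis). Red points lie above both V0 libraries (3403 genes), blue points below both (2899), grey points between them (3021), and black circles mark the 30 genes past limma's test. A wide cloud lies around 0, and the circled genes stand at its 2 ends, with 1 of them close to V0 library 1 and far from library 2.

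A gap of at least 1.5-fold was found at 71 genes above both V0 libraries (0.762% of genes used) and at 40 genes below both (0.429%). The member nearest this limit had a gap of 0.588 above and 0.591 below, and the nearest gene outside it 0.585 and 0.578, so the limit cuts a continuous range. Without centring this balance turned too, to 42 genes above and 78 below. A gap of 2-fold was passed by 5 genes above (0.0536%) and 1 gene below (0.0107%). Against single libraries the counts were larger. V30 was higher by 1.5-fold at 157 genes and lower at 147 against V0 library 1, or 1.68% and 1.58% of genes used. Against V0 library 2 it was higher at 352 and lower at 169, or 3.78% and 1.81%. Between the V0 libraries, library 2 was higher than library 1 at 125 genes and lower at 219, or 1.34% and 2.35%. In both directions together, 344 genes differed by 1.5-fold between the V0 libraries, against 304 between V30 and V0 library 1 and 521 between V30 and V0 library 2. Both V0 libraries came from plants kept without cold.

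**Figure D2:**
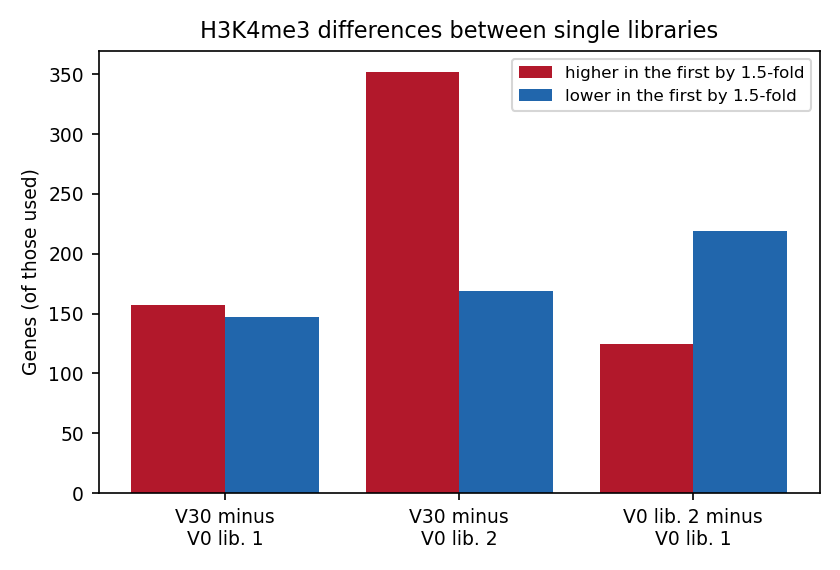
Bars give the number of genes, of 9323, whose centred H3K4me3 signal was higher (red) or lower (blue) by at least 1.5-fold in the first library of each pair. V30 against V0 library 1 (157 and 147) gave no more such genes than V0 library 2 against library 1 (125 and 219), and V30 against V0 library 2 gave 352 and 169.

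Of the 9323 genes, 23 rose and 7 fell in V30 by limma's moderated test at a Benjamini-Hochberg adjusted p under 0.05, 0.247% and 0.0751% of genes used, and 655 had an unadjusted p under 0.05. By design a share of 0.05 of genes passes that unadjusted limit where nothing differs, so 655 is no count of changed genes. All 30 lay outside both V0 libraries, 20 of the 23 and 6 of the 7 by 1.5-fold or more. The test and the gap are computed from the same values of the same libraries, so this overlap is no separate support. The rises ranged between 0.81 and 1.61 on the log2 scale, with SEs of 0.21 to 0.27, and their median signal was 86.2 in V30, against 41.5 and 43.1 in the V0 libraries. The 7 genes that fell had a median signal of 28.0 in V30, against 74.7 and 79.8 in the V0 libraries. The error was estimated from 1 residual degree of freedom, the difference of the V0 libraries, and the SE was taken from a trend over all genes, so a gene whose own V0 libraries differed widely could still pass. The widest such case among the genes that rose was 0.11 above V0 library 1 and 2.87 above library 2. All of the genes that rose were past 1.5-fold against library 2, but only 20 of them against library 1. With values as deposited limma called 5 higher and 0 lower genes (234 of 9323 at an unadjusted p under 0.05). With the filled genes kept it called 0 and 0 (854 of 11752 at an unadjusted p under 0.05). Of the 30 calls, 10 were lost when the variance trend was left out, 8 with centring on all genes of a library and 7 with quantile normalization.

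The largest gap upward was at Bradi1g76030. Its H3K4me3 signal was 96.7 in V30, against 24.98 and 30.8 in the V0 libraries, a log2 difference of 1.61 (limma SE 0.23, adjusted p = 2.1e-08). V30 was above both V0 libraries by nearly the same amount, 1.61 and 1.62. This locus also carried H3K27me3, with a signal of 125 in V30 and 245 in V0, a centred log2 difference of -0.81 with 1 library per condition. In V30N, after the return to warmth, H3K4me3 was 35.9 and H3K27me3 was 196. The locus has no name or description in the files.

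Bradi5g20890, the second, had an H3K4me3 signal of 129 in V30, against 48.3 and 52.6 in the V0 libraries, a log2 difference of 1.31 (limma SE 0.21, adjusted p = 1.6e-06). Its V30N signal of 46.9 was below both V0 signals, and no H3K27me3 value was analysed for it. Downward, Bradi2g20070 had 28.0 in V30, against 74.7 and 79.8 in V0, a log2 difference of -1.11 (limma SE 0.21, adjusted p = 0.00027), and 69.2 in V30N. Bradi1g77867 had 26.96 in V30, against 75.6 and 71.6 in V0, a log2 difference of -1.09 (limma SE 0.21, adjusted p = 0.00050), and 54.3 in V30N. The V30 value stood alone at all 4 loci, with the other 3 H3K4me3 libraries on the far side of the gap. No H3K27me3 value was analysed for the downward loci. Both downward calls were lost with values as deposited (limma adjusted p of 0.105 and 0.151), where the log2 differences were -1.21 and -1.19 and the median SE over all genes was 0.31 in place of 0.22.

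The 71 genes with a 1.5-fold gap upward had a median signal of 70.3 in V30, 38.7 in V30N, 33.7 in V0 library 1 and 41.6 in V0 library 2. Their V30 signal ran between 22.3 and 189, so that the group held weakly and strongly marked genes, with a median at the 36.4 percentile of level over the 4 libraries. For the 40 genes downward the medians were 27.9 in V30, 56.6 in V30N, 51.5 in V0 library 1 and 66.3 in V0 library 2, and the V30 signal ran between 8.64 and 57.1. V30 chose these genes, but V30N had no part in the choice beyond its fill value. V30 was higher than V30N at 71 of the 71 genes upward, 57 of them by 1.5-fold, whereas V30 was higher than V30N by any amount at 53.7% of all genes used and by 1.5-fold at 3.90%. It was lower than V30N at 40 of the 40 genes downward, 27 by 1.5-fold, against 46.3% and 1.67% of all genes used. The same single V30 library stands on one side of both comparisons, so these counts are no separate check of it.

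**Figure D3:**
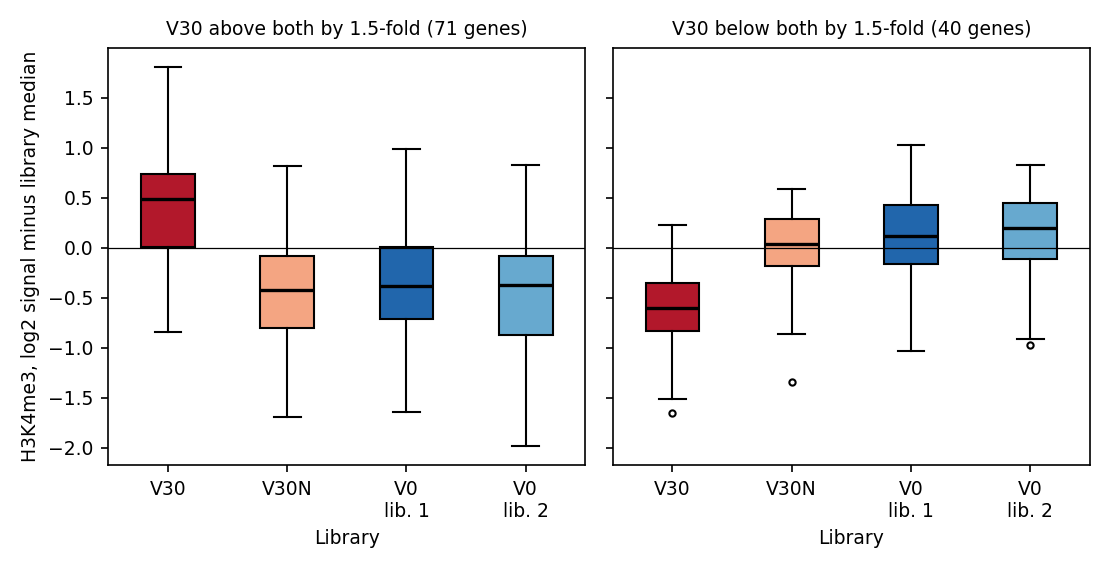
Boxes show the centred log2 H3K4me3 signal in each library at the 71 genes with V30 above both V0 libraries by 1.5-fold (left) and the 40 genes with V30 below both by 1.5-fold (right), with the median as a black line, the quartiles as the box, whiskers to 1.5 box lengths and points beyond. V30 had medians of 0.49 on the left and -0.61 on the right, whereas V30N and both V0 libraries lay close together, between -0.42 and -0.37 on the left and between 0.04 and 0.20 on the right. Choice by the distance from the nearer V0 library favours genes whose V0 libraries are alike. The median V0 difference was 0.11 on the left and 0.09 on the right, against 0.18 over all genes used.

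Genes were split into quartiles by their level over the 4 libraries. V30 is among these, so a high V30 value moves a gene toward a higher quartile and a low value toward a lower one. The counts by quartile are therefore partly set by the split itself. In the quartile with the lowest level, 35.6% of genes had V30 above both V0 libraries and 28.4% below both. In the second quartile the shares were 33.7% and 36.0%, in the third 36.9% and 31.5%, and in the highest 39.9% and 28.4%. Upward gaps of 1.5-fold were found at 24 genes in each of the 2 lower quartiles, 14 in the third and 9 in the highest. Downward gaps of 1.5-fold followed no such order, with 8 genes in the lowest quartile, 16 in the second, 9 in the third and 7 in the highest. The V0 libraries were farther apart at low level, with an SD of their difference of 0.33 in the lowest quartile and 0.26 in the others. Limma called 1 higher and 0 lower genes in the lowest quartile, 11 and 2 in the second, 7 and 2 in the third, and 4 and 3 in the highest.

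The genes were spread over the 5 chromosomes, as read from the identifiers. V30 lay above both V0 libraries at 36.4% of genes on chromosome 1, 36.5% on chromosome 2, 37.2% on chromosome 3, 34.3% on chromosome 4 and 38.7% on chromosome 5. Below both, the shares lay between 29.4% on chromosome 5 and 31.8% on chromosome 4. Across 3411 pairs of neighbouring loci, whose identifier numbers were at most 10 apart and which share the libraries, the V30 minus V0 difference had Pearson's r of 0.029.

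Of the 12 flowering and photoperiod loci looked up, 7 were in the H3K4me3 tables, and 4 of these held a fill value: VRN1, FUL2, FT2 and VRN2L. VRN1 (Bradi1g08340) had 66.0 in V30 and the fill value in both V0 libraries, so no difference can be given for it. The related MADS-box gene FUL2 (Bradi1g59250) had 27.2 in V30 and 29.6 in V0 library 2, and the fill value in library 1. VRN2L (Bradi3g10010), a relative of VRN2, which delays flowering in wheat and barley, had 72.9 in V30 and 34.2 in V0 library 2, again with the fill value in library 1. FT2 (Bradi2g07070), a florigen relative, had 32.3 in V30 and the fill value in all of the other libraries. For these 4 genes the comparison of H3K4me3 with both V0 libraries was not possible. Their H3K27me3 signal was lower in V30 than in V0 at VRN1 (474 and 726), FT2 (225 and 337) and VRN2L (151 and 178). It was higher at FUL2 (1518 and 1202), with 1 library per condition.

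The 3 loci left were SOC1, PHYB and PHYC, with 1 above both V0 libraries, 1 below both and 1 between. SOC1 (Bradi1g77020), a MADS-box gene that integrates flowering signals in Arabidopsis, had 56.2 in V30, against 46.5 and 49.9 in V0. Its log2 difference of 0.29 (limma SE 0.22, adjusted p = 0.906) did not pass. Its H3K27me3 signal was 539 in V30 and 360 in V0, so that both marks had a higher value in V30 at this locus. In V30N the signals were 46.5 for H3K4me3 and 316 for H3K27me3. PHYC (Bradi1g08400), a phytochrome needed for the long-day response in grasses, had 66.4 in V30, against 69.4 and 80.3 in V0. PHYB (Bradi1g64360), another red-light receptor, had 60.3 in V30, between 51.2 and 83.3 in V0. The log2 differences of PHYC and PHYB were -0.05 and -0.01, and the median over the 3 loci was -0.01, against 0.02 over all genes used. It was 0.18 against V0 library 1 alone and -0.03 against V0 library 2 alone.

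Both clock genes in the tables had V30 above both V0 libraries. TOC1 (Bradi3g48880), an evening-expressed pseudo-response regulator, had 65.3 in V30, against 51.9 and 48.0 in V0, and 59.8 in V30N. Its log2 difference of 0.43 (limma SE 0.21, unadjusted p = 0.044) did not pass over all genes (limma adjusted p = 0.694). ELF3 (Bradi2g14290), a member of the evening complex, was among the most strongly marked genes and had 136 in V30, against 123 in each V0 library, a log2 difference of 0.23 (limma SE 0.29, adjusted p = 0.970). The 2 V0 values of ELF3 differed by less than 1 unit of signal as deposited. Once centred, V0 library 2 minus library 1 was -0.24 there, and V30 was above library 1 by 0.11. Background for such counts is the 36.5% of all genes that lay above both V0 libraries, and 2 genes are too few to be set against it. Their median difference was 0.33, with 0.19 against V0 library 1 alone and 0.47 against V0 library 2 alone.

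CBF genes lie side by side on chromosome 4, and 5 of the 9 loci looked up were in the H3K4me3 tables, 4 of them without a fill value. V30 lay above both V0 libraries at 3 of these 4 after centring and below both at 1, against 36.5% and 31.1% of all genes used. Bradi4g35580 had 38.6 in V30, against 20.2 and 31.7 in V0, a log2 difference of 0.56 (limma SE 0.26, unadjusted p = 0.032, adjusted p = 0.620). Bradi4g35600, above 99.9% of genes in level, had 180 in V30, against 109 and 195 in V0. As deposited, V30 was thus below V0 library 2 there, and it lay above it only after centring, by 0.11. Bradi4g35610 had 35.5 in V30, against 28.9 and 41.6 in V0, with the same dependence on centring. Bradi4g35650 had 31.6 in V30, against 39.6 and 47.3 in V0, a log2 difference of -0.27 (limma SE 0.24, adjusted p = 0.945).

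The CBF gene Bradi4g35590 was left out for its fill value in V30N, but its other libraries held values of their own, 73.3 in V30, against 45.0 and 59.8 in V0. V30 was above them by 0.58 and 0.47 on the centred log2 scale. The median over the 4 CBF genes used was 0.25, with 0.43 against V0 library 1 alone and 0.07 against V0 library 2 alone, so its size depended on the V0 library. Against library 1 and library 2 the differences were 0.66 and 0.11 at Bradi4g35600 and 0.21 and 0.03 at Bradi4g35610. They were closer together at Bradi4g35580, 0.67 and 0.44, and at Bradi4g35650, -0.28 and -0.25. H3K27me3 was measured at 2 of the 4 and was lower in V30 at both, where 56.6% of all genes with both marks were lower. Its signal was 83.6 in V30 against 135 in V0 at Bradi4g35580 and 52.9 against 94.6 at Bradi4g35600. In V30N these signals were 140 and 103. H3K27me3 was also lower in V30 at Bradi4g35590, at 152 against 268 in V0. At Bradi4g35640, which had no H3K4me3 value, it was 23.5 in V30 against 28.0 in V0. The 6 IRI loci, which encode ice recrystallization inhibition proteins, were not analysed here for H3K4me3.

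Of the 7 genes used as references in expression work, 6 were measured without a fill value. V30 lay between the V0 libraries at 4, above both at 1 and below both at 1, against 32.4%, 36.5% and 31.1% of all genes used. GAPDH (Bradi3g14120), an enzyme of glycolysis, had 97.9 in V30, against 96.2 and 106 in V0. It was above both V0 libraries only after centring, by 0.0027. UBI4 (Bradi3g04730), a polyubiquitin gene, had 18.8 in V30, against 20.6 and 35.0 in V0. UBC18 (Bradi4g00660), a ubiquitin-conjugating enzyme, had 58.5 in V30, against 62.4 and 63.4 in V0, and so was below both as deposited but between them once centred. The other 3, SamDC, UBI10 and EF1a, had V30 signals of 16.5 to 24.6. The median log2 difference over the 6 was 0.03, and turned to -0.06 without centring and -0.02 with quantile normalization. It was -0.08 against V0 library 1 alone and 0.12 against V0 library 2 alone, so its sign depended on the V0 library.

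**Figure D4:**
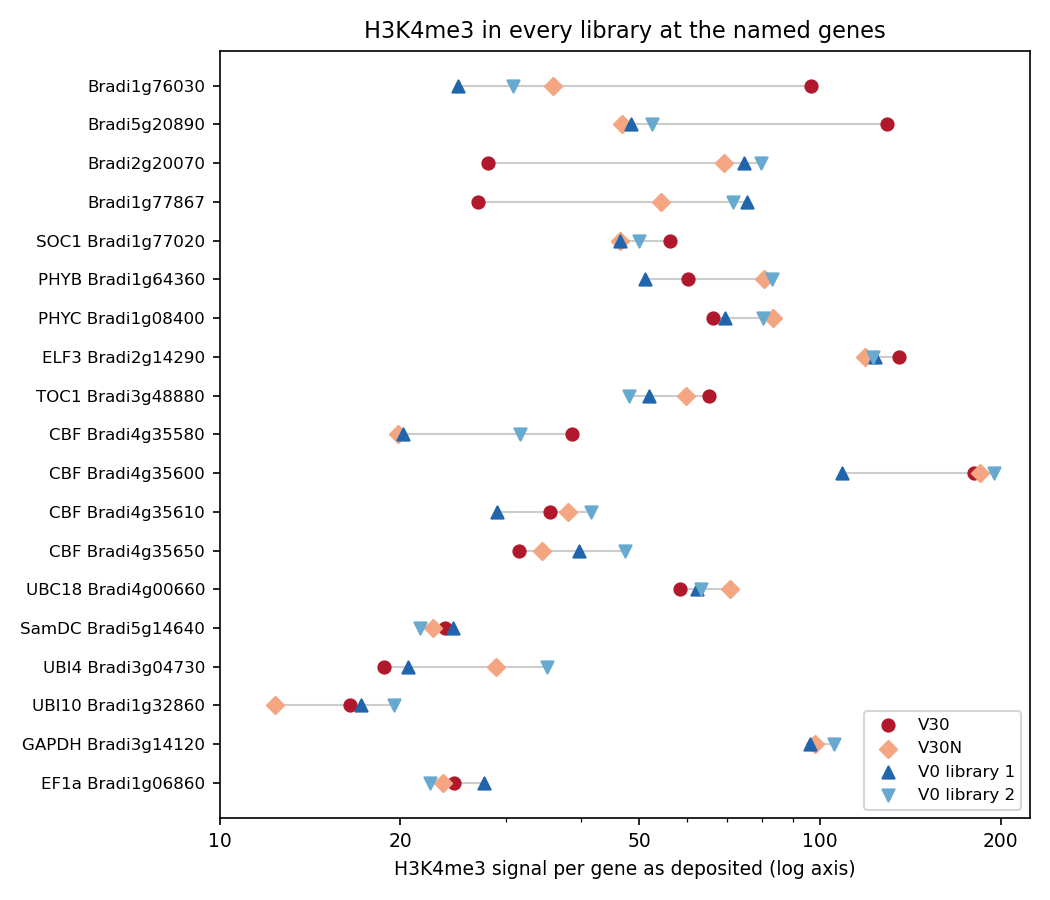
Points give the deposited H3K4me3 signal (log axis) of the 4 loci with the largest gaps and of the listed loci without a fill value, with 1 symbol per library and a grey line over the range. V30 (red circles) stands well outside the other libraries at the top 4 loci, at 96.7 and 129 upward and 28.0 and 26.96 downward, while at most listed loci the V0 libraries are farther apart than V30 is from the nearer of them.

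H3K27me3 is a separate readout of the same conditions, with 1 library each and therefore no replicate. Of the genes used for H3K4me3, 1448, or 15.5%, were in the H3K27me3 tables. The share was 15.3% (520 genes) where V30 H3K4me3 lay above both V0 libraries, 15.0% (436) where it lay below both and 16.3% (492) where it lay between. The centred log2 difference of H3K27me3 between V30 and V0 had a median of -0.06 in the genes above, -0.04 in those below and -0.05 over all 1448. H3K27me3 was lower in V30 at 59.8% of the genes above and 54.4% of those below, against 56.6% of all genes with both marks. Across the 1448 genes, which share their libraries, the differences in the marks had Pearson's r of -0.057 and Spearman's rho of -0.034. A relation this weak is not a finding.

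Of the 71 genes with a 1.5-fold gap upward, 11 carried H3K27me3, and it was lower in V30 at 9 of them, with a median log2 difference of -0.12. Over all 1448 genes with both marks it was lower at 56.6%. Only 1 of the 11 was lower by 1.5-fold, and their median H3K27me3 signals were 105.6 in V30 and 106.4 in V0. Of the 40 genes downward 8 carried it, and 4 were lower and 4 higher. Among the 23 genes that rose by limma 3 had H3K27me3, and it was lower in V30 at 3 of 3, by -0.81, -0.51 and -0.33 on the centred log2 scale. The second of these had 31.1 in V30 and 57.7 in V0, and the third 26.6 and 42.2. Among the 7 that fell by limma 1 had H3K27me3, and it too was lower, at 95.0 in V30 and 173 in V0, while its H3K4me3 was 37.3 in V30, against 86.7 and 91.4 in V0. At that locus both marks had less signal after cold. With so few genes no direction can be given for the group.

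Read the other way, H3K27me3 was lower in V30 by 1.5-fold at 36 genes with both marks (2.49%) and higher by 1.5-fold at 9 (0.622%). At the 36 genes the median H3K4me3 difference was 0.10, with 0.10 against V0 library 1 alone and 0.06 against library 2 alone, against 0.02 over all 1448 genes. Of the 36, 15 had V30 H3K4me3 above both V0 libraries (41.7%), 10 below both (27.8%) and 11 between, close to the 35.9% and 30.1% over all genes with both marks. Only 1 of the 36 had an H3K4me3 gap of 1.5-fold upward, and 1 downward. At the 9 genes higher in H3K27me3, 2 lay above both, 1 below both and 6 between.

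**Figure D5:**
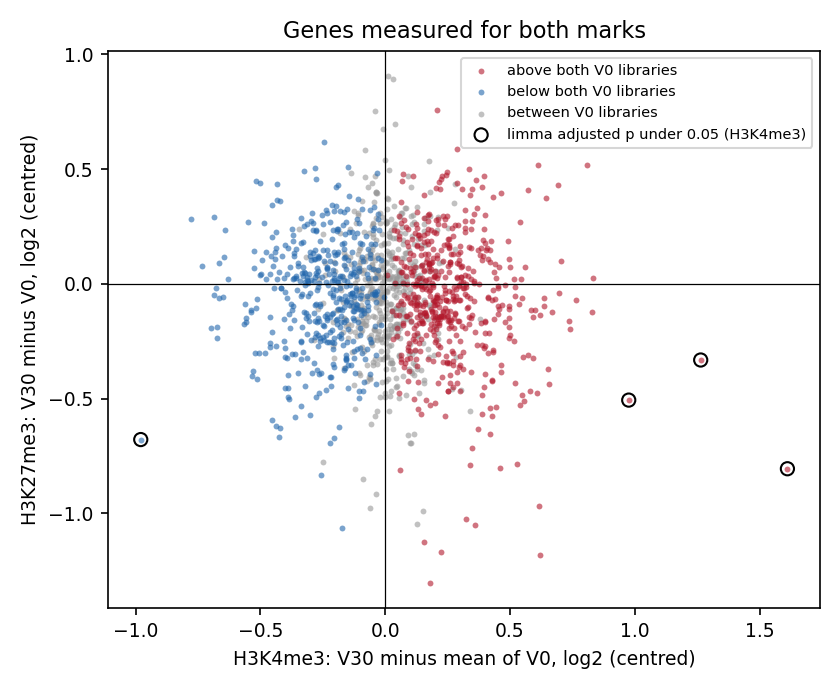
Each point is 1 of 1448 genes measured for both marks, plotted by the centred log2 difference between V30 and the mean of the V0 libraries for H3K4me3 (horizontal axis) and between V30 and V0 for H3K27me3 (vertical axis, 1 library each). Red, blue and grey mark H3K4me3 above both, below both and between the V0 libraries, and black circles the 4 genes past limma's test for H3K4me3. All 4 circled genes have lower H3K27me3 in V30, 3 with higher and 1 with lower H3K4me3, and the cloud as a whole shows almost no slope. H3K27me3 was lower in V30 at 56.6% of all 1448 genes.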

How the data were processed

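H3K4me3 and H3K27me3 were profiled by ChIP-seq in 7 libraries. Each deposited table gave 1 signal value per gene, which the authors derived from reads aligned with Bowtie2 2.1.0, per the submitters' processing notes. Genome build, annotation, input correction and normalization are not given in the sources used here. Depth is unknown. The fill value of a library was its most frequent value. The pseudocount was the 1st percentile of all values of the mark (9.41 for H3K4me3, 27.3 for H3K27me3) and understates changes of low genes. Libraries were centred on the median of the genes used. The functions lmFit and eBayes of limma 3.58.1, run in R 4.3.3 with the variance allowed to follow the level, were fitted to V30 and both V0 libraries over 9323 genes. Benjamini-Hochberg adjustment was over all of them. In simulated data it called 81 of 100 genes given a log2 difference of 1, 100 of 100 given -2 and 12 of 9123 given none. The simulation used independent errors and a single spread for all genes. It does not cover a spread that changes with level or a likeness of V30 and V0 library 1. The prior on the variance was estimated with infinite degrees of freedom. The SE of a gene was therefore set by its level alone, and its own V0 difference had no weight. V30 was assumed to vary as V0 did. The labels call V0 library 2 a biological replication of library 1, but whether they came from separate plantings is not stated. The p-values therefore reflect the difference of 2 libraries, which may be partly or wholly technical.

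The comparison, lists and named loci were chosen with earlier results of these data known. Named loci are all listed loci and, in each direction, the 2 with the largest gap among genes outside the lowest 25% of level. Level was averaged over all 4 libraries, V30 included, so a high V30 value helped a gene past this limit. Bradi1g76030 stood at the 30.6 percentile of level with its V30 value counted. Its gap of 1.61 and that of Bradi2g20070, 1.04, were also the largest over all genes used. Lists that need gene descriptions were not formed, and no promoter or protein sequence was matched. Alternatives covered scaling, pseudocount, filled genes, level, the variance trend, the libraries fitted and each V0 library left out. Python 3.11.15 with numpy 2.4.6, pandas 2.3.3, statsmodels 0.14.6 and matplotlib 3.10.9 was used.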

Additional observations from a re-analysis of the deposited data

How the results depend on the processing

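No paired analysis was possible because V30 has 1 library. Depth is unknown and limits every low value. In what follows counts are of genes with V30 above and below both V0 libraries, at any gap, at 1.5-fold and at 2-fold. With values as deposited, the counts were 2019 above at any gap, 42 above and 78 below at 1.5-fold and 3 below at 2-fold, and limma called 5 higher and 0 lower, of which 4 were among the 30 called with centring. With all genes kept they were 131 and 477 at 1.5-fold and 17 and 103 at 2-fold, limma called 0 and 0, and the flowering median was 0.30 over 7 loci, 4 of them with fill values. With a pseudocount of 1 they were 161 and 121 at 1.5-fold and 21 and 6 at 2-fold, with 11 lower calls by limma. With the 5th percentile they were 47 and 19 at 1.5-fold and 0 below at 2-fold. Without the 25% of genes with the lowest level, 40 were above at 1.5-fold and limma called 14 lower. Centring on all genes of a library, chosen after seeing the data, left 0 below at 2-fold. Against 1 V0 library at a time, 4770 to 5057 genes were above and 4266 to 4553 below, 157 to 352 and 147 to 169 at 1.5-fold, 9 to 31 and 4 to 5 at 2-fold, and these counts rise because 1 library is easier to pass than 2. The median of the flowering list was -0.027 without V0 replicate 1 and 0.18 without replicate 2. Removing the trend of H3K27me3 with level gave -0.24 for the 11 genes with that mark among the 71 with a 1.5-fold gap upward. The 4 loci with the largest gaps kept their direction in every alternative, and all 4 lost limma's call with all genes kept (adjusted p of 0.141, 0.141, 0.161 and 0.190). The causes of these moves were not tested.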
